A study of Homo sapiens with 8 samples.

Results

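The genes described here are the LIN28, IGF2BP and HMGA regulators of developmental timing, together with TRIM71, DNMT3A and DNMT3B. They are 10 genes chosen by name from a table of 17504 genes, with earlier results of these data known and with no threshold on a measured value: LIN28A, LIN28B, TRIM71, IGF2BP1, IGF2BP2, IGF2BP3, HMGA1, HMGA2, DNMT3A and DNMT3B. All 10 were found in the table and all 10 passed the filter on low counts. They were measured by bulk RNA sequencing of brain organoids at day 30, grown from the human induced pluripotent stem cell line IMR90-4. The comparison sets 3 libraries of FABP7 knockdown organoids (genotype labelled FABP7 knockdown, line FKD) against 3 control libraries (genotype labelled WT, line FCT). The labels derive each group from 1 line of IMR90-4, so any other difference between the lines cannot be told apart from the knockdown, and how FABP7 was knocked down is not given in the sources used here. No label says that replicates were separate cultures, so the p-values reflect only how much these libraries vary, and that variation may be technical.

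LIN28A and LIN28B are RNA-binding proteins that hold back maturation of the let-7 microRNAs, and let-7 in turn represses a set of mRNAs that includes both LIN28 genes, TRIM71, the IGF2BP genes and HMGA2. The loop keeps early progenitors in an early state, and its members are known to decline as the embryo and the brain mature. DNMT3A and DNMT3B, the enzymes that lay down new DNA methylation, change places over the same period, with DNMT3B typical of pluripotent and early embryonic cells and DNMT3A of later neural cells.

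The let-7 sequences are shown because all of them carry 1 seed, the stretch that pairs with target mRNAs, and the search for sites described later uses that seed. RefSeq on GRCh38.p14 lists 9 mature sequences of the 5p arm, each of 22 bases, and bases 2 to 8 were identical in all 9. In the following examples capitals mark the seed.
let-7a-5p: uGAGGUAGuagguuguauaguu
let-7d-5p: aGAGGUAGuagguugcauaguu
let-7g-5p: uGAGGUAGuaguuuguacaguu
miR-98-5p: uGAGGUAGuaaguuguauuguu
LIN28 proteins recognise a GGAG element in the loop of let-7 precursors. The letters GGAG followed the mature 5p sequence in 9 of the 12 hairpins of the family, and are in capitals in the hairpin of let-7g (chr3:52268278-52268361, minus strand, GRCh38.p14).
let-7g hairpin: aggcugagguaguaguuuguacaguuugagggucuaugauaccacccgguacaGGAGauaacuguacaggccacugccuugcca
The amounts of let-7 itself were not measured here.

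The libraries held 13424959 to 15675888 estimated counts. FABP7 had 2650 to 3123 counts in control and 14 to 16 in knockdown, so the targeted gene fits the labels. Neural genes were abundant, with 11 radial glia markers summing to 2235 to 2312 CPM (counts scaled to a common library size) in control and 2260 to 2323 CPM in knockdown. Behind these similar sums 4 of the 11 were higher and 4 lower (edgeR adjusted p under 0.05), a share of 72.7% against 51.7% of all genes. SOX2 and HES5 rose by 0.58 and 0.69 on the log2 scale, and SLC1A3 and PAX6 fell by 0.39 and 0.25. The series' design text speaks of adipogenic differentiation, whereas the adipocyte markers were near 0: the 5 in the table summed to at most 3.20 CPM in any library and ADIPOQ was not analysed here. Mitosis genes were higher in all 15 of 15 markers (summed level 1123 to 1170 CPM in control and 2271 to 2314 CPM in knockdown), and 13 of 14 neuron markers were lower (5749 to 5820 against 4280 to 4338 CPM). TOP2A rose by 1.14 on the log2 scale and NEFL, the neuron marker with the smallest p, fell by 1.41. STMN2 and TUBB3, the 2 most abundant neuron markers, fell by 0.37 and 0.34. In bulk RNA fewer cells of a type and less RNA per cell cannot be told apart, and the part that cell composition plays in the values given next was not tested.

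LIN28A and DNMT3B fell clearly, LIN28B fell modestly, TRIM71 rose modestly, and the other members moved little or not at all. Calls were made at a Benjamini-Hochberg adjusted p of 0.05 over all 13468 genes tested, in edgeR's quasi-likelihood test. By that rule 5 of the 10 genes were lower in knockdown (LIN28A, LIN28B, HMGA2, DNMT3A and DNMT3B), 1 was higher (TRIM71) and 4 were not called (IGF2BP1, IGF2BP2, IGF2BP3 and HMGA1). Of all tested genes 51.7% were called, 25.3% lower and 26.4% higher, so the share of members called lies near the background. The balance of calls moved with the settings: 51.1% of called genes were higher with TMM scaling and 37.7% with library totals alone. It was 20.6% for limma-trend on log2(TPM + 1), where the test, the filter and the length correction differ as well. The median absolute log2 fold change was 0.22 over all genes, and 6 of the 10 members lay below it. By range, 6 of the 10 members had groups that did not overlap, 5 with knockdown below and 1 above, against 57.3%, 28.2% and 29.1% of all genes. No member passed a test against a 1.5-fold change (edgeR glmTreat, adjusted p), although 2 had an unadjusted p under 0.05 in that test, LIN28A and DNMT3B. That stricter test called 4.69% of all genes, and 2.55% as lower.

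**Figure D1:**
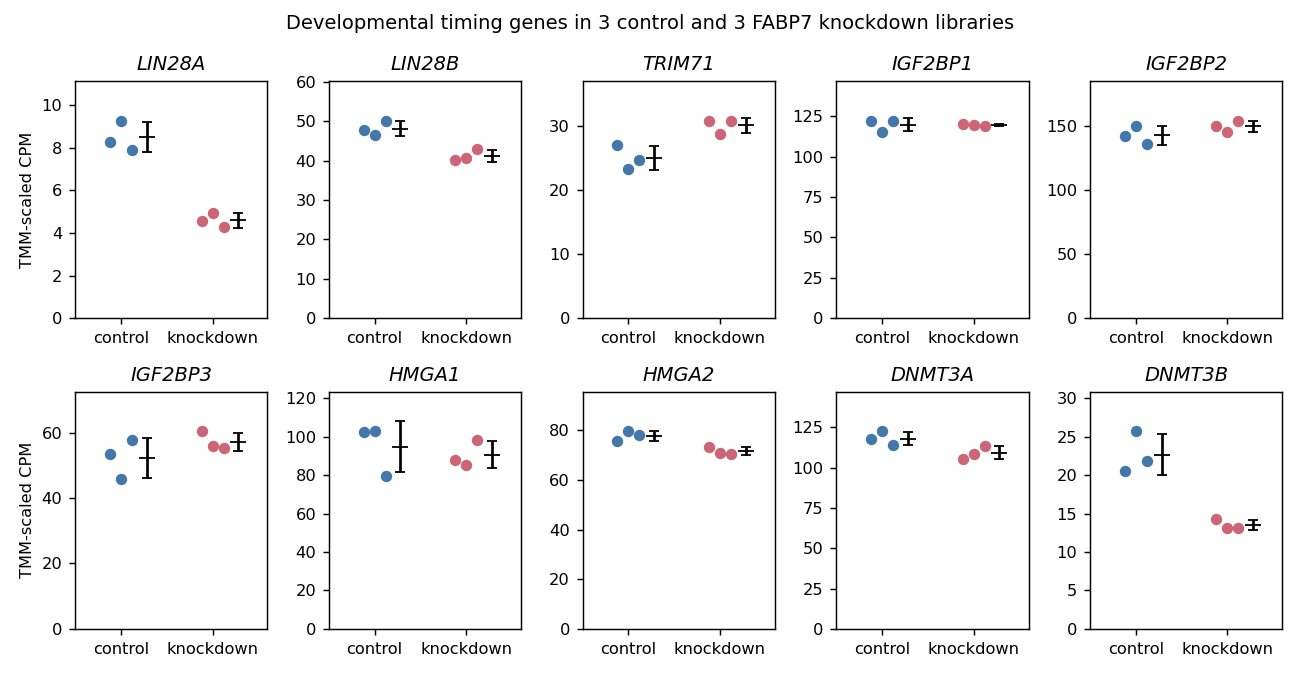
TMM-scaled CPM (vertical axes, each starting at 0) of the 10 genes in 3 control (blue) and 3 FABP7 knockdown (red) libraries; points are libraries, the black mark and bar are the mean and SD. Relative to the control mean, LIN28A and DNMT3B show the widest gaps, from 8.48 to 4.59 CPM and from 22.7 to 13.5 CPM. The libraries of IGF2BP1, IGF2BP2, IGF2BP3 and HMGA1 overlap between groups.

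LIN28A, the let-7 antagonist first known from pluripotent cells, was the lowest of the 10 genes and had the largest fall. It had 8.28, 9.27 and 7.90 CPM in control replicates 1, 2 and 3 and 4.57, 4.93 and 4.26 CPM in knockdown, from 117 to 132 counts against 64 to 73. Every knockdown library lay below every control library. Its mean was 8.48 ± 0.71 CPM in control and 4.59 ± 0.34 CPM after knockdown (SD, n = 3 each), which is a log2 difference of -0.88 ± 0.13 (SE) with a 95% interval of -1.15 to -0.62 (edgeR adjusted p = 4.63e-06). Among all tested genes 94.5% had a smaller absolute change. RefSeq lists 3 pseudogene copies of LIN28A, and any reads shared with them make its low counts less certain.

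LIN28A lies in a stretch of chromosome 1 in which most genes were lower. The gene spans chr1:26410817-26429728 (GRCh38.p14). Of its 20 nearest tested genes, 10 on each side within 1.10 Mb, 16 were called lower and none higher, and their log2 fold changes had a median of -0.42 and a range of -1.06 to 0.06. LIN28A was 0.46 lower than that median (a difference of -0.46), and 1 of the 20, EXTL1, had a fall as large. HMGN2, a nucleosome-binding protein encoded close by, had a log2 fold change of -0.14. Over the whole of chromosome 1, 46.1% of 1355 tested genes were called lower and 19.6% higher, against 25.3% and 26.4% of all genes. The median log2 fold change was -0.17 over that chromosome, and between -0.03 and 0.04 over the chromosomes of the other members. The part that the region or the chromosome plays in the fall of LIN28A was not tested.

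LIN28B, the paralog that is known to persist later in neural progenitors, was the more abundant LIN28 gene in every library. It had 47.7, 46.4 and 50.2 CPM in the control replicates, against 40.1, 40.6 and 42.8 CPM with the knockdown, with no overlap between the groups. Its log2 fold change was -0.22 ± 0.06 (SE), a fall of 14.4% (edgeR adjusted p = 0.00294). On the length-corrected scale of TPM (transcript abundance corrected for length) LIN28B stood at 4.13, 3.59 and 4.41 times LIN28A in the control libraries and at 6.28, 5.64 and 7.16 times in knockdown. That ratio is taken within a library and so does not depend on scaling. It rose from 4.04 ± 0.42 to 6.36 ± 0.76 (SD, n = 3 each) with no overlap, and with 3 libraries against 3 an exact permutation test cannot go below p = 0.1.

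TRIM71, the ubiquitin ligase and mRNA repressor also called LIN41, was the one member that was higher. It had 27.1, 23.3 and 24.8 CPM in the control replicates, against 30.9, 28.9 and 30.8 CPM with the knockdown, and the groups did not overlap. The log2 fold change was 0.27 ± 0.07 (SE), with an edgeR adjusted p of 0.00366. On log2(TPM + 1), where the median of all genes lay at -0.16, its change was 0.07 and the call was lost (limma-trend adjusted p = 0.458). Its 20 chromosome neighbours had a median of 0.18. Of these neighbours 9 were called higher and 1 lower, and 13 had a log2 fold change no higher than that of TRIM71. Of all genes 26.4% were higher and 25.3% lower. The part that the region plays in the rise of TRIM71 was not tested. In mouse embryonic stem cells TRIM71 represses the mRNA of CDKN1A, the cell cycle inhibitor p21. CDKN1A fell from 81.3 ± 7.73 to 9.89 ± 0.80 CPM, or -3.04 ± 0.08 on the log2 scale (SE; edgeR adjusted p = 3.14e-18). Whether TRIM71 has any part in the fall of CDKN1A was not tested. CDKN2A and CDKN2B, the inhibitors that HMGA2 keeps low in mouse neural stem cells, were too low to test: CDKN2A stood at 0.045 CPM in control against 0.068 CPM, and CDKN2B at 0.285 against 0.36 CPM. A floor of 3 counts corresponds to 0.188 to 0.217 CPM in these libraries, so for CDKN2A no difference was detectable at this depth.

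The IGF2BP genes encode RNA-binding proteins that stabilise, localise and hold translation of target mRNAs, and none of the 3 was called. IGF2BP1 had 121.9, 115 and 122.3 CPM in the control replicates, against 120.3, 119.8 and 118.8 CPM with the knockdown. Its libraries overlapped and its log2 fold change was -0.00188 ± 0.04 (SE), with a 95% interval of -0.09 to 0.09 (edgeR adjusted p = 0.975). IGF2BP2, the most abundant of the family by TPM, had 142.3, 149.6 and 135.5 CPM in the control replicates, against 149.5, 144.9 and 154.1 CPM with the knockdown, with an interval of -0.02 to 0.16 (edgeR adjusted p = 0.206). IGF2BP3 had 53.3, 45.8 and 57.7 CPM in the control replicates, against 60.4, 55.95 and 55.3 CPM with the knockdown, with an interval of -0.02 to 0.27 (edgeR adjusted p = 0.129). Control replicate 2 held the lowest IGF2BP3 value and control replicate 3 lay inside the knockdown range. Without control replicate 3 IGF2BP3 was called higher, at 0.21 on the log2 scale (edgeR adjusted p = 0.00785). On log2(TPM + 1) IGF2BP1 was called lower, at -0.18 (limma-trend adjusted p = 0.0094), close to the shift of all genes on that scale, and the signs of IGF2BP2 and IGF2BP3 turned, to -0.12 and -0.05, with neither called. IGF2BP3 overlaps MALSU1, so without stated strand use its reads and those of MALSU1 (log2 fold change -0.04) cannot be fully told apart.

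HMGA1 and HMGA2 are small chromatin proteins that bind AT-rich DNA, and HMGA2 is a textbook let-7 target whose decline accompanies the ageing of neural stem cells in mice. HMGA2 had 75.7, 79.7 and 78.0 CPM in the control replicates, against 73.4, 70.9 and 70.6 CPM with the knockdown. The groups did not overlap, but the gap was small: the means were 77.8 ± 1.97 and 71.6 ± 1.55 CPM (SD, n = 3 each), which is a log2 difference of -0.12 ± 0.05 (SE; edgeR adjusted p = 0.0455). This call was lost in 7 of 16 alternatives, among them the DESeq2 test (adjusted p = 0.132) and 5 of the 6 fits that left out a library, that is, without control replicate 2 or 3 or any knockdown replicate (edgeR adjusted p of 0.0613 to 0.142). HMGA1 had 102.3, 102.9 and 79.4 CPM in the control replicates, against 87.9, 85.5 and 98.6 CPM with the knockdown, the widest spread of the 10 genes in control (14.1% of the mean). Its 95% interval ran from -0.33 to 0.20 (edgeR adjusted p = 0.659). Control replicate 3 was the low library, and without it HMGA1 was called lower at -0.18 (edgeR adjusted p = 0.00624). RefSeq lists 8 pseudogene copies of HMGA1, and reads shared with them make its counts uncertain. The same limit holds for LIN28A and IGF2BP2 with 3 copies each, IGF2BP3 with 2 and DNMT3A with 1.

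DNMT3B, which is known for its high level in pluripotent cells, had the second largest fall. It had 20.5, 25.7 and 21.8 CPM in the control replicates, against 14.3, 13.2 and 13.1 CPM with the knockdown, and every knockdown library lay below every control. Its mean was 22.7 ± 2.70 CPM in control and 13.5 ± 0.65 CPM after knockdown (SD, n = 3 each), which is a log2 difference of -0.74 ± 0.09 (SE) with an interval of -0.93 to -0.55 (edgeR adjusted p = 4.31e-07). The gene spans chr20:32762385-32809356 (GRCh38.p14), and its 20 nearest tested genes had a median of -0.06 and a range of -0.40 to 0.30, and none fell as far. DNMT3A had 117.5, 122.5 and 114 CPM in the control replicates, against 105.5, 108.7 and 113.3 CPM with the knockdown. The knockdown libraries lay just below the controls and the log2 fold change was -0.11 ± 0.05 (SE; edgeR adjusted p = 0.0472). That call was lost in 6 of 16 alternatives, including the fits without control replicate 1 or 2 and without knockdown replicate 1 or 2 (edgeR adjusted p of 0.083 to 0.199). Within a library the TPM of DNMT3A was 2.97, 2.54 and 2.72 times that of DNMT3B in control and 3.92, 4.45 and 4.21 times in knockdown. The ratio thus rose from 2.74 ± 0.22 to 4.19 ± 0.27 (SD, n = 3 each) without overlap, where the exact permutation test has a smallest p of 0.1.

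**Figure D2:**
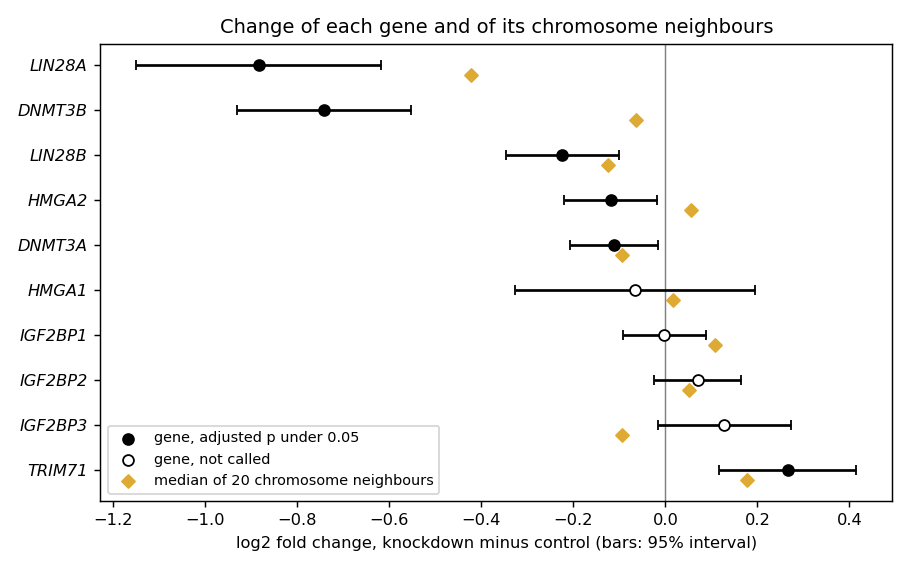
Log2 fold change, knockdown minus control, of the 10 genes (circles, filled where the edgeR adjusted p is under 0.05; bars are 95% intervals) and the median of their 20 chromosome neighbours (diamonds). LIN28A at -0.88 and its neighbours at -0.42 are both displaced to the left, whereas DNMT3B at -0.74 lies far from neighbours at -0.06.

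**Figure D3:**
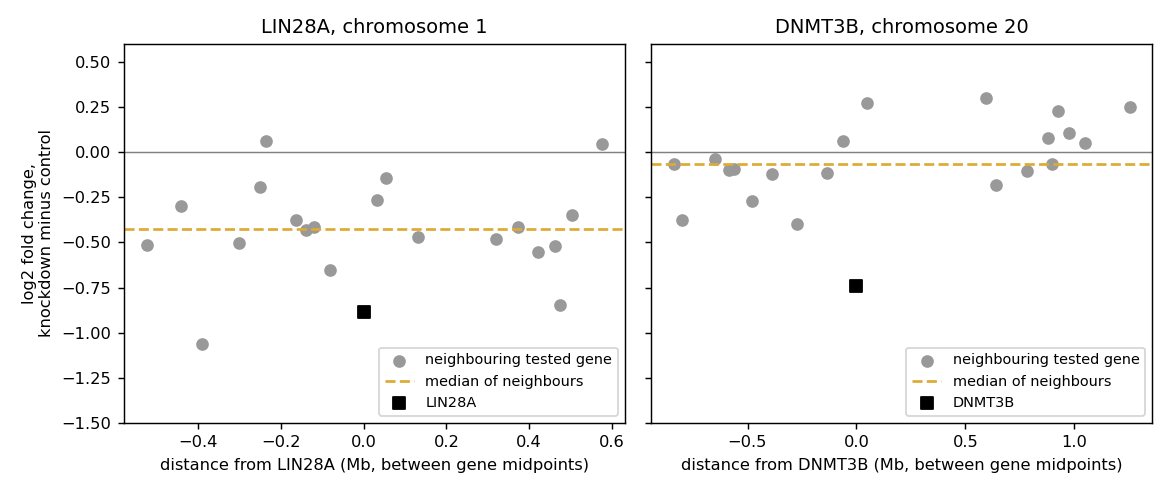
Log2 fold change (vertical axis) of the 20 nearest tested genes (grey) by distance in Mb from LIN28A (left) and DNMT3B (right), with the gene itself as a black square and the neighbours' median as a dashed line. Around LIN28A 18 of 20 neighbours lie below 0, with a median of -0.42, and around DNMT3B 12 of 20 do, with a median of -0.06.

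The order of the 10 genes by length-corrected level was almost the same in both groups. In control, mean TPM was highest for HMGA1 (88.2 ± 11.9 TPM, SD, n = 3), then IGF2BP2 (56.5 ± 2.36 TPM), HMGA2 (31.1 ± 0.90 TPM) and DNMT3A (25.4 ± 1.26 TPM). IGF2BP1 (21.8 ± 0.74 TPM) and IGF2BP3 (20.1 ± 2.44 TPM) followed with overlapping libraries, the only neighbours in the order that overlapped in control. LIN28B (14.1 ± 0.55 TPM), DNMT3B (9.33 ± 1.11 TPM), TRIM71 (4.49 ± 0.34 TPM) and LIN28A (3.51 ± 0.25 TPM) were lowest. In knockdown only IGF2BP1 and IGF2BP3 changed places, at 19.0 ± 0.09 and 19.3 ± 0.81 TPM, and LIN28A was again last at 1.68 ± 0.15 TPM.

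LIN28A and DNMT3B are also pluripotency genes, but other markers of pluripotent cells were not called. Of 11 such markers 9 were in the table and 5 were tested, with 0 called by edgeR, none at an unadjusted p under 0.05 and none in DESeq2 or limma-voom, while limma-trend on either TPM scale called 1 lower. DPPA4 had 16.7 ± 0.66 and 17.1 ± 1.05 CPM, SALL4 8.97 ± 0.49 and 8.69 ± 0.50 CPM, NANOG 5.52 ± 0.29 and 5.08 ± 0.26 CPM, and POU5F1, which encodes OCT4, 0.964 ± 0.14 and 0.991 ± 0.38 CPM in the control and knockdown groups respectively. The 9 markers summed to 32.8 to 35.3 CPM in control and 33.1 to 35.7 CPM in knockdown. The ranges of these sums overlapped. Mesenchymal markers were low, and 2 of 5 tested were higher, where 26.4% of all genes were. LUM rose from 0.484 to 6.81 CPM and PDGFRB from 10.0 to 16.0 CPM.

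By profile over the 6 libraries, the genes closest to LIN28A were INKA2, RASD1 and LRATD1, and those closest to DNMT3B were GJD2, ATP13A2 and RBFOX3. Likeness was the Euclidean distance between mean-centred log2 CPM values among 10858 genes of at least 5 CPM, with distances of 0.097 to 0.144 for LIN28A and 0.077 to 0.144 for DNMT3B. INKA2 fell from 10.98 to 5.78 CPM and RASD1, a Ras-related GTPase, from 28.8 to 15.2 CPM. GJD2, a neuronal gap junction protein, fell from 6.77 to 3.91 CPM, and RBFOX3, which encodes the neuronal marker NeuN, from 10.0 to 5.69 CPM. ATP13A2 lies on chromosome 1 among neighbours with a median of -0.67, of which 19 of 20 were lower. With only 6 libraries in 2 groups, a like difference between the groups is enough to bring profiles close.

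Most of the 10 mRNAs carry let-7 seed matches. The 7-base complement of the seed, CTACCTC, was sought on the mRNA strand in the 3′ UTR of 1 GENCODE v29 transcript a gene. It was present in 8 of the 10 genes, against 10.0% of the 13254 tested genes with such a transcript, and in 3 or more copies in 4 of the 10, against 0.226% of all. Several of these genes are textbook let-7 targets, and their 3′ UTRs are long, from 1347 to 6424 bases against a median of 1137.5, so these shares describe the genes chosen and are no result of the knockdown. TRIM71 held 6 matches, HMGA2, IGF2BP1 and LIN28B held 4 each, LIN28A, IGF2BP2, IGF2BP3 and HMGA1 held 1 each, and DNMT3A and DNMT3B held none. Sites are shown for LIN28A, the member that fell most, TRIM71, which rose, and HMGA2 and LIN28B, which hold several matches, with the match in capitals, on the mRNA strand and with GRCh38 coordinates. The site of LIN28A is at chr1:26427349-26427370, the first sites of TRIM71, HMGA2 and LIN28B are at chr3:32891969-32891990, chr12:65963299-65963320 and chr6:105078813-105078834, all 4 on the plus strand and in the exonic 3′ UTR.
LIN28A site: cacagcctattgaaCTACCTCa
TRIM71 site: acattgcttaagtcCTACCTCa
HMGA2 site: ccaacgttcgatttCTACCTCa
LIN28B site: cccggttgcaaagtCTACCTCa
In each of these 4 the match is followed by an A, the form of site known to be the most effective. Over all matches that form made up 4 of 6 in TRIM71, 2 of 4 in LIN28B and 1 of 4 in HMGA2. In IGF2BP1, whose sites are not shown, it made up 3 of 4. The members with most matches were not the ones that fell most: TRIM71 with 6 was at 0.27, LIN28B, HMGA2 and IGF2BP1 with 4 were at -0.22, -0.12 and -0.00188, whereas LIN28A with 1 was at -0.88 and DNMT3B with none at -0.74. No test was made over these 10 points.

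**Figure D4:**
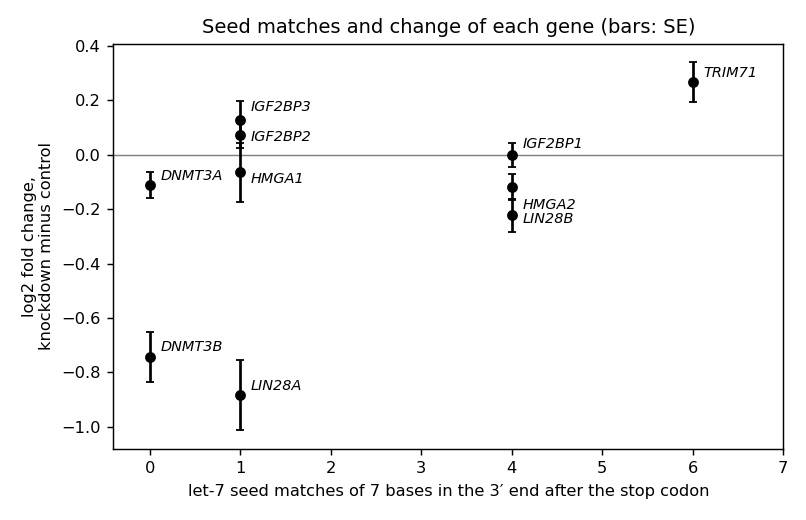
Number of 7-base let-7 seed matches in the 3′ UTR (horizontal axis) against the log2 fold change, knockdown minus control (vertical axis, bars are SE), for the 10 genes. TRIM71 with 6 matches is at 0.27, the 3 genes with 4 matches lie between -0.22 and -0.00188, and the 2 large falls are LIN28A with 1 match and DNMT3B with 0.

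Other known let-7 targets were called in both directions, in a balance that moved with the settings. Of 26 such genes tested 7 were higher and 7 lower, a called share of 53.8% against 51.7% of all genes, and their median was -0.05 on the log2 scale against -0.01 for all genes. With library totals alone 4 were higher and 11 lower, and on log2(TPM + 1) 1 and 13. NR2E1, the neural stem cell factor TLX, rose from 24.5 ± 1.78 to 39.6 ± 0.23 CPM, and CCND2, a cyclin of radial glia, rose from 479 ± 4.83 to 564 ± 4.93 CPM. NRAS rose by 0.22 on the log2 scale, and NR6A1, an orphan nuclear receptor of early embryos, fell by 0.57. Among 17 genes that make or break down microRNAs 5 were higher and 7 lower, a called share of 70.6% against 51.7% of all genes, with a median of -0.11. With library totals alone 2 were higher and 10 lower, and on both TPM scales 0 and 11. AGO4 and AGO1, which hold microRNAs in the silencing complex, fell by 0.69 and 0.52. TUT4, the uridylyltransferase that LIN28 recruits to let-7 precursors, fell from 195 ± 5.91 to 143 ± 0.83 CPM, and DROSHA, the nuclear processing enzyme, from 120 ± 2.47 to 86.8 ± 1.10 CPM. AGO1, AGO4 and TUT4 lie on chromosome 1 among neighbours with medians of -0.38, -0.40 and -0.35. DROSHA lies on chromosome 5, also among lowered neighbours (median -0.36, 15 of 20 lower). The part of these regions was not tested. Of the 13 genes outside chromosome 1, DROSHA included, 4 were lower and 5 higher. TUT7 and DIS3L2, which act with TUT4 in let-7 decay and were named after their values were seen, had log2 fold changes of -0.11 and -0.14 and were not called (edgeR adjusted p of 0.1 and 0.172).

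Of 11 tested partners and bound mRNAs of the IGF2BP proteins 2 were higher and 3 lower, a called share of 45.5% against 51.7% of all genes. On both TPM scales 1 was higher and 7 were lower. IGF2, the growth factor mRNA that gave the family its name, rose from 6.94 ± 0.20 to 9.27 ± 1.01 CPM and PABPC1, the poly(A)-binding protein, by 0.33 on the log2 scale. MAPT, which encodes tau and is also a neuron marker, fell by 0.56, BTRC, a ubiquitin ligase subunit, by 0.42, and YBX1, a protein partner of IGF2BP1, by 0.47 in a part of chromosome 1 whose neighbours had a median of -0.53. In the insulin-like growth factor axis 4 of 13 tested genes were higher and 5 lower, a called share of 69.2% against 51.7% of all genes. On both TPM scales 2 were higher and 7 lower. IGFBP2, a binding protein of neural progenitors, fell from 92.5 ± 4.89 to 55.4 ± 0.66 CPM and IRS1, a receptor substrate, by 0.45, while IGFBP4 and IGFBP5 rose by 0.56 and 0.36. IGF2BP proteins also read N6-methyladenosine (m6A). Of 15 genes of that pathway 3 were higher and 7 lower, a called share of 66.7% against 51.7% of all genes, with a median of -0.10. On both TPM scales 0 were higher and 9 lower, and without knockdown replicate 1 the number lower was 4. YTHDF2, a reader that triggers mRNA decay, fell by 0.66 in the lowered part of chromosome 1 (neighbours' median -0.46), the writer subunit WTAP fell by 0.26 and the reader YTHDC2 by 0.31, while the writer subunit VIRMA rose by 0.30.

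Of 10 other high mobility group genes tested 6 were higher, where 26.4% of all genes were, and 1 was lower, and the median was 0.20 on the log2 scale against -0.01 for all genes. HMGB2, which is known to be high in dividing cells, rose from 415 ± 4.14 to 691 ± 11.9 CPM, HMG20B by 0.62, HMGN3 by 0.39 and HMGN1 by 0.21. The one that was lower was HMGN2, the neighbour of LIN28A. The mitosis markers given at the start moved the same way as HMGB2, and their part in its rise was not tested. With library totals alone 5 were higher and 2 lower, and on both TPM scales 4 and 3.

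Of the rest of the DNA methylation machinery 4 of 14 tested genes were higher and 1 lower, a called share of 35.7% against 51.7% of all genes. With library totals alone 4 were higher and 4 lower, and on both TPM scales 0 and 5. MBD2, a methyl-CpG reader, fell from 24.2 ± 1.13 to 15.6 ± 0.78 CPM. Among those that were higher, TET1 and TET2, which oxidise methylcytosine, rose by 0.29 and 0.28 and UHRF2 by 0.22. DNMT1, the maintenance enzyme, was named after its values were seen and had 89.1 CPM in control against 85.9 CPM (edgeR adjusted p = 0.4). Among 8 tested Polycomb and NFI genes, which are tied to the later timing of progenitors, 2 were higher and 2 lower. That called share of 50% stands against 51.7% of all genes. EZH1 and EZH2 rose by 0.18 and 0.15, and JARID2 and NFIB fell by 0.18 and 0.32. The groups of NFIB overlapped (edgeR adjusted p = 0.046). The number higher was 0 with library totals alone, on both TPM scales and without knockdown replicate 2, and 1 without control replicate 1 or 3 or knockdown replicate 1 or 3. The number lower was 1 in DESeq2, with the replicate block, and without control replicate 1 or knockdown replicate 1 or 2. NFIA, a driver of the switch to gliogenesis that was also named after its values were seen, stood at 9.77 CPM in both groups.

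**Figure D5:**
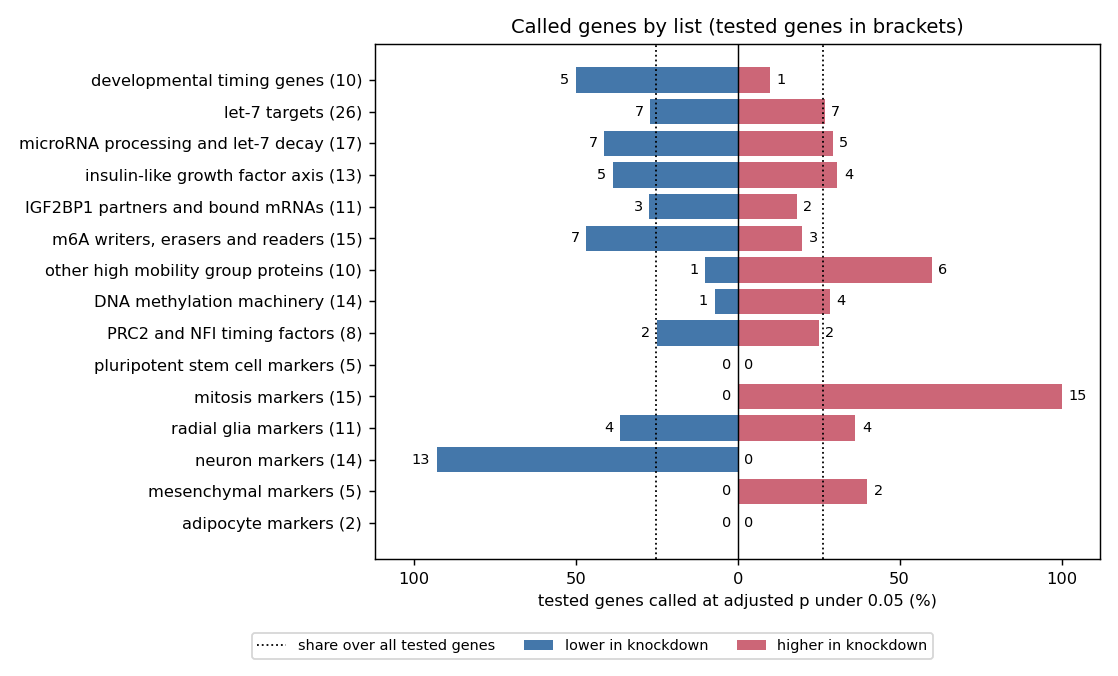
Share of tested genes called at an edgeR adjusted p under 0.05 (horizontal axis, percent, lower to the left in blue and higher to the right in red) for the 10 timing genes and the gene lists, with the numbers called at the bar ends and the shares over all genes (25.3% lower, 26.4% higher) as dotted lines. Mitosis markers (15 of 15 higher) and neuron markers (13 of 14 lower) lie far from the dotted lines, while 5 of the 10 timing genes were lower and 1 higher.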

How the data were processed

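RNA was analysed from 3 control and 3 FABP7 knockdown bulk libraries; 2 single-cell libraries named in the labels were not analysed here. The deposited table gave, per the file headers, estimated counts, TPM and FPKM, and also a signal, the read count as scaled by the authors. Estimated counts and TPM were used, and the deposited FPKM and scaled signal entered no test. The submitters' processing notes name hg38 as the build. Aligner, counting tool and strand use: not given in the sources used here. The labels' extraction text describes single-cell libraries, so how the bulk libraries were prepared is not separately stated.

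Expected counts (12.6 to 14.9% of values not whole) were rounded. The test was that of edgeR 4.0.16 (R 4.3.3), with TMM factors, filterByExpr (minimum count 10, minimum total 15), a robust quasi-likelihood F-test and Benjamini-Hochberg adjustment over all 13468 tested genes at 0.05. Standard errors are the log2 fold change divided by the root of F. CPM are TMM-scaled. A test against a 1.5-fold change used glmTreat.

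Genes were placed by NCBI Gene ID on RefSeq GRCh38.p14. Sites for let-7 were read from GENCODE v29 transcripts (GRCh38), 1 a gene by APPRIS rank and then by the longest 3′ UTR, in windows of 22 bases. Sequences of let-7 are from RefSeq.

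Members and lists (9 pathway and 6 marker lists) were chosen with earlier results of these data known, so no p was adjusted over a list and no list was tested. Names followed a rule: all members, FABP7, up to 4 list genes by smallest p, all called genes where 5 or fewer were called, and 3 profile neighbours for each of 2 members. The rule also covered the 2 most abundant genes of each marker list, but not all of these are named. A gene that the rule names is not reported here. EXTL1, MALSU1, HMGN2, TUT7, DIS3L2, DNMT1 and NFIA were picked with their values known. Other settings tried were DESeq2 1.42.0 size factors and its Wald test, upper-quartile factors, library totals, limma 3.58.1 (voom, and trend on log2(TPM + 1) and log2(TPM + 0.1) where 3 libraries reached 1 TPM), other filters, the replicate number as a block, and leaving out each library.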

Additional observations from a re-analysis of the deposited data

How the results depend on the processing

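LIN28A, LIN28B and DNMT3B kept their direction and their call in every alternative that tested them: 15 for LIN28A, which could not be tested at 10 CPM in 3 libraries, and 16 for the others, with log2 fold changes of -1.02 to -0.75, -0.41 to -0.19 and -0.90 to -0.65. TRIM71 kept its direction in 16 and lost its call on both TPM scales (0.07 and 0.08). The number of members called higher was 0 on log2(TPM + 1) and 0 on log2(TPM + 0.1), and 1 to 2 with a library left out (2 without control replicate 3). The number called lower was 3 in the DESeq2 Wald test, 3 with no low-count filter and 3 to 5 with a library left out (3 without control replicate 2 or knockdown replicate 1 or 2), against 5. Members past 1.5-fold numbered 1 under upper-quartile factors, 2 under library totals alone and 0 to 1 with a library left out (1 without control replicate 3), against 0. Signs turned for IGF2BP1 with no low-count filter (0.00823) and with a library left out (-0.0349 to 0.0154), for IGF2BP2 on the TPM scales (-0.123 and -0.125) and for IGF2BP3 on the TPM scales (-0.0533 and -0.0554). On those scales the median of all genes lay at -0.16 and -0.17. Of 480 counts of called list genes under alternatives 410 were within 1.5 times the main count. With 5 chromosome neighbours on each side the medians were -0.41 for LIN28A, 0.25 for TRIM71 and -0.11 for DNMT3B. The median for HMGA2 turned from 0.06 to -0.10. The cause of these changes was not tested.

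Deviations from the group means correlated at 0.04 to 0.07 between same-numbered libraries and at -0.12 to 0.06 between the others. With deviations centred within groups of 3 libraries, values this small cannot decide whether the replicate numbers pair the libraries. With the replicate number as a block 7114 genes were called against 6966, and the members called were 5 lower and 1 higher as before. LIN28A is the member most limited by depth, with 64 to 132 counts in a library.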

Other observations

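Across all tested genes, without regard to the length of the 3′ UTR, median changes differed little with the number of let-7 seed matches. Genes with 0, 1 and 2 matches numbered 11924, 1173 and 127 and had median log2 fold changes of -0.0019, -0.02 and -0.0069. The 30 genes with 3 or more had a median of 0.0002, and TRIM71, HMGA2, IGF2BP1 and LIN28B are among these 30. Of the 30 genes 26.7% were called higher and 30.0% lower, against 26.6% and 25.5% of all genes with a transcript. The 3′ UTRs of the 4 groups grew longer with the number of matches, with medians of 1007, 2696, 4907 and 5692 bases. Within 3′ UTRs of 1500 to 4500 bases the medians were -0.03 for 3651 genes with no match, -0.02 for 561 genes with 1 and -0.11 for 54 genes with 2 or more. In that range 20.4% of genes with 2 or more matches were called higher and 33.3% lower. The shares were 24.2% and 28.2% with 1 match, and 25.1% and 30.9% with none. These are descriptions without a test.

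The tested genes whose spans contain let-7 hairpins were WDR82 (let-7g), SPACA6 (let-7e) and HUWE1 (let-7f-2 and miR-98). WDR82 fell by 0.17 on the log2 scale (edgeR adjusted p = 0.000602), and HUWE1 and SPACA6 were not called, at -0.08 and -0.01 (edgeR adjusted p of 0.121 and 0.969). Levels of a host mRNA do not measure the microRNA.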
